A study of Mus musculus with 6 samples.

Results

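The replication-dependent histone genes were taken as every gene whose name on the array begins with Hist1h, Hist2h, Hist3h or Hist4h, which gave 38 genes (45 probes) of 27361 gene names (41137 probes). They comprise 6 genes of the linker histone H1, 12 of H2A, 11 of H2B, 3 of H3 and 6 of H4. By their names, 28 belong to the Hist1 cluster on chromosome 13, 6 to Hist2 on chromosome 3, 3 to Hist3 on chromosome 11 and 1 to Hist4 on chromosome 6. The probe with the highest mean signal stood for each gene. 35 of the 38 genes were well above background on all 6 arrays, and 37 passed the filter of at least 2 such arrays, the exception being Hist1h2be. The genes were chosen for their differences between genotypes and between polarization states, so these differences are given as descriptions without a test.

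Histones are the proteins around which DNA is wound. H2A, H2B, H3 and H4 form the core of the nucleosome, and H1 binds the DNA between nucleosomes. Most histone genes of the clusters are expressed in S phase, when newly made DNA needs histones, and their mRNAs end in a conserved stem-loop instead of a poly(A) tail. Several of these genes can also give longer, polyadenylated mRNAs, which are known from cells that have left the cell cycle. Labelling from an oligo-dT primer favours polyadenylated mRNA. The labels name only the manufacturer's standard labelling protocol, without the primer.

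The study grew bone marrow-derived macrophages of C57BL/6 mice over 7 days with 10% conditioned medium of L929 cells and measured total RNA on 1-colour Agilent arrays, with 1 array per genotype and state. Knockout (KO) cells were LysMcre FoxO1 Fl/Fl, in which a Cre recombinase expressed from the lysozyme M gene of myeloid cells deletes the transcription factor gene Foxo1. Wild-type (WT) cells were FoxO1 Fl/Fl without Cre, so Cre and the deletion cannot be told apart. In each genotype M0 cells were left untreated, M1 cells received 100 ng/ml lipopolysaccharide with 20 ng/ml interferon-gamma for 24 hours, and M2 cells received 10 ng/ml interleukin-4 with 10 ng/ml interleukin-13 for 24 hours. With 1 array per group there is no replicate check, and the labels leave unsaid how many animals gave the 6 RNA samples.

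The level of a probe is its log2 processed signal minus the 75th percentile of its array, so a level of 0 is that percentile (532.4 to 627.1 signal units). Levels of different probes are not compared with each other. Both Foxo1 probes were lower in KO in every state, with KO minus WT differences of -2.92 to -2.65 on the log2 scale. The 7 macrophage markers found were well above background on all arrays, with a median level of 6.32 to 6.81. Liver transcripts stood out on WT M0, where all 10 markers were well above background at a median level of 0.85, and on KO M1, where 8 were (median -3.89), against 3 to 6 markers and medians of -7.48 to -5.95 on the other arrays. WT M0 and WT M1 share slide 1 and the other 4 arrays share slide 2. The M2 pair is therefore the only KO against WT comparison within a slide, and the only one that uses neither WT M0 nor KO M1.

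The histone probes were compared in sequence with the other probes of the array. No probe was compared with the transcripts of other histone genes, so whether it also reads those was not tested. Probes of 3 H2B genes differ in few bases. The 60-base probes of Hist1h2bk and Hist1h2bm match at 58 of 60 bases, and the probe of Hist3h2bb-ps matches that of Hist1h2bk at 55 of 58 overlapping bases. In the lines that follow capitals mark the bases that differ between Hist1h2bk and Hist1h2bm, and for Hist3h2bb-ps those that differ from Hist1h2bk in the overlap. Their values cannot be taken as those of separate genes.
Hist1h2bk: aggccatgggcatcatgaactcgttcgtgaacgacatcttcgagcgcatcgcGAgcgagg
Hist1h2bm: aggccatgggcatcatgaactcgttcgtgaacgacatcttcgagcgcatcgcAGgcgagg
Hist3h2bb-ps: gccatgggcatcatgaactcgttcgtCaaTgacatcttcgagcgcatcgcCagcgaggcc

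The probes of the H4 genes Hist1h4f and Hist1h4d share a run of 50 identical bases, given in capitals, and the probe of Hist2h4 matches that of Hist1h4f at 45 of 49 overlapping bases.
Hist1h4f: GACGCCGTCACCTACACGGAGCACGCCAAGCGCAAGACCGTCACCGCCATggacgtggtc
Hist1h4d: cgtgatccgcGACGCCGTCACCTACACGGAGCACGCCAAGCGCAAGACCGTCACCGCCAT

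The probe of Hist1h3a ends in the stem-loop itself, and its last 30 bases are given with the 16-base stem-loop in capitals. This run of letters occurs in 1 of the 45 histone probes and in 1 of all 41174 probes on the array.
Hist1h3a: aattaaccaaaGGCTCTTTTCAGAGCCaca

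Some probes lie far along the transcript. Hist1h1d has a probe at base 551 and another at base 2302, which are shown because they disagree below. The first is given whole, and of the second and the far probe of Hist1h2ac (base 2194) the first 30 bases are given. The first 30 bases of the probe of Hist1h4i, at base 574, are added because that gene stands apart from the other H4 genes.
Hist1h1d, base 551: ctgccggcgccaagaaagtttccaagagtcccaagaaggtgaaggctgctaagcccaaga
Hist1h1d, base 2302: tgtgtaatcagatgtttgtagaatactctg
Hist1h2ac, base 2194: aagtccctaggattagaaaacatacacttc
Hist1h4i, base 574: gggaatcccaatagagccttctgcttggga

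Across the 37 genes that passed the filter the median KO minus WT difference on the log2 scale was 0.26 for M0, 0.49 for M1 and 0.22 for M2, beside 0.10, 0.13 and -0.05 over all 19044 genes that passed it. At least 2-fold higher in KO were 8 histone genes in M0, 11 in M1 and 12 in M2, where 9.93%, 14% and 3.36% of all genes were. At least 2-fold lower in KO were 1 histone gene in M0, 0 in M1 and 4 in M2, where 4.25%, 1.71% and 4.9% of all genes were. In all 3 states 20 of the 37 genes were higher in KO (22% of all genes) and 5 were lower (15.1% of all genes). 6 histone genes were at least 2-fold higher in KO in every state (0.42% of all genes) and 0 were at least 2-fold lower in every state (0.268% of all genes). Because the genes were chosen on these contrasts, nothing is read from those counts. With a background correction by normexp, 4 histone genes in M1, 7 in M2 and 1 in all 3 states were at least 2-fold higher in KO.

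The histone types differed from each other, as the plot of KO minus WT by gene shows. The H2B genes had a median difference of 1.05 for M0, 0.96 for M1 and 1.09 for M2, and all 10 were higher in KO in all 3 states, except that Hist2h2bb was at -0.09 in M0 with normexp. Under the 4 other scalings and sources (median centring, quantile normalization, normexp and the authors' table) the H2B medians lay between 0.64 and 1.16. At least 2-fold higher were 5 H2B genes in M0 (9.93% of all genes), 4 in M1 (14%) and 9 in M2 (3.36%). Of these counts the M1 one was 2 with median centring and with normexp, and with normexp M0 gave 3 and M2 gave 5. The 9 include Hist1h2bk, Hist1h2bm and Hist3h2bb-ps, whose probes are nearly identical. For H4 the genes had medians of -0.40, 0.13 and -0.59, and 5 of the 6 were lower in KO in M0 and M2 under all of these settings. Their small positive M1 values turned negative with median centring. Hist1h4d in M1 was also at -0.02 with quantile normalization and -0.04 with the authors' table, which put Hist1h4f at -0.02. The H1 genes had medians of -0.07, 0.68 and -0.98. With normexp the M0 one was 0.87, beside 0.36 over all genes, and the M1 one was 0.04. Quantile normalization and the authors' table each put the H1 median in M1 at 0.36. The H2A genes had medians of 0.23, 0.12 and -0.15. Of these M0 was -0.16 with normexp, and M1 was -0.07 with quantile normalization and -0.09 with the authors' table. The H3 genes had 0.35, 0.27 and 0.30. With each array centred on its median, which moves the KO minus WT median of all genes in M1 to -0.19, the M1 medians of H2A, H3 and H4 were -0.20, -0.05 and -0.19, and those of H1 and H2B stayed positive at 0.36 and 0.64.

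**Figure D1:**
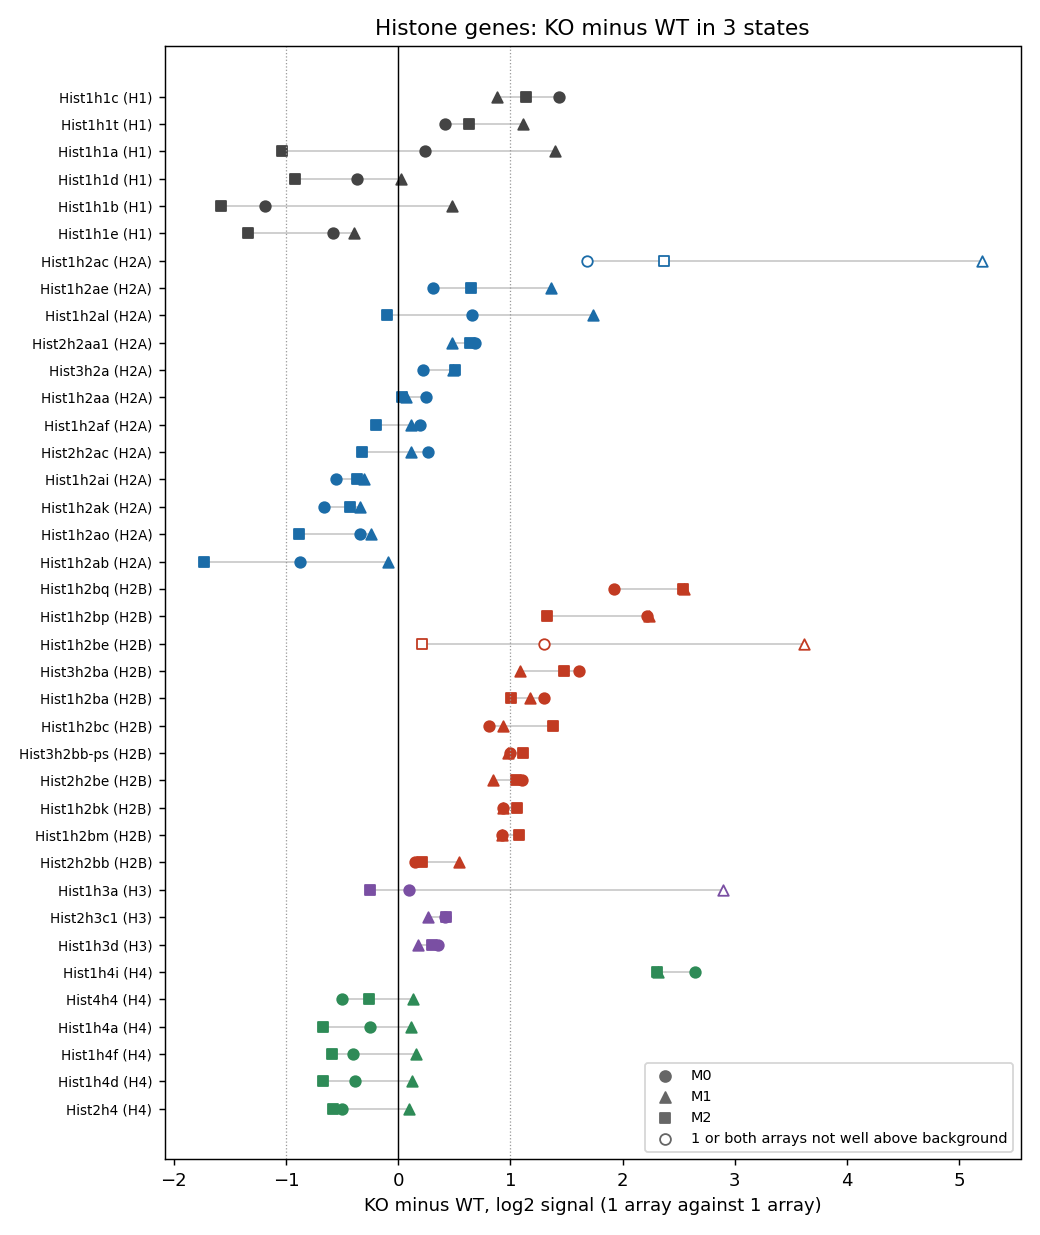
KO minus WT difference (x axis, log2 signal, 1 array against 1 array) of each of the 38 histone genes in M0 (circles), M1 (triangles) and M2 (squares), coloured by type; open symbols have 1 or both arrays not well above background, and dotted lines mark a 2-fold difference. The H2B genes lie right of 0 in every state, while all H4 genes but Hist1h4i lie left of 0 in M0 and M2.

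H2B, which pairs with H2A in the nucleosome core, was the type whose genes were all higher in KO. Hist1h2bk had levels of 4.89 in KO and 3.95 in WT in M0, 5.35 in KO and 4.41 in WT in M1, and 4.78 in KO and 3.72 in WT in M2. The KO array was higher than its WT partner by 0.94, 0.94 and 1.06. Hist1h2bm differed by 0.92, 0.93 and 1.07 and Hist3h2bb-ps, listed as a pseudogene by its suffix, by 1.00, 0.98 and 1.11, through the nearly identical probes shown above. Every KO level of these 3 probes exceeded every WT level of the same probe. Another probe of Hist1h2bk, at base 106, gave 0.96, 1.02 and 1.15.

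Other H2B genes, whose probes were not among the nearly identical ones, were higher in KO as well. Whether their probes also match transcripts of other H2B genes was not tested. Hist3h2ba had levels of 0.63 in KO and -0.98 in WT in M0, -0.43 in KO and -1.52 in WT in M1, and -0.12 in KO and -1.59 in WT in M2. Its 3 KO levels all lay above its 3 WT levels, with differences of 1.61, 1.09 and 1.48. Hist1h2ba, which encodes the testis variant TH2B, read 3.85 in KO and 2.55 in WT in M0, 4.26 in KO and 3.09 in WT in M1, and 3.57 in KO and 2.56 in WT in M2. That is a difference of 1.30, 1.17 and 1.01. Hist1h2bp read -2.27 in KO and -4.49 in WT in M0, -2.18 in KO and -4.41 in WT in M1, and -2.26 in KO and -3.58 in WT in M2. Its KO levels stayed within a narrow range while WT M2 lay closest to them, so that the differences were 2.21, 2.23 and 1.32. With normexp the differences of Hist1h2bp were 1.69, 0.97 and 0.74.

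Hist1h2bq and Hist2h2be were read by probes far along the transcript, at base 1935 and base 2337. Hist1h2bq had levels of -2.28 in KO and -4.20 in WT in M0, and -2.63 in KO and -5.18 in WT in M1. In M2 it had -3.03 in KO and -5.56 in WT. Its differences were 1.92, 2.54 and 2.54, and with normexp 1.60, 0.87 and 0.81. Hist2h2be had 1.90 in KO and 0.79 in WT in M0, 1.27 in KO and 0.42 in WT in M1, and 1.97 in KO and 0.92 in WT in M2, and differed by 1.10, 0.85 and 1.05. In both genes the 3 KO levels lay above the 3 WT levels. Hist1h2bc (0.81, 0.93 and 1.38) was close to these, and Hist2h2bb differed least (0.15, 0.54 and 0.22). Hist1h2be was well above background only on KO M1, where it was at least 2.95-fold over WT M1. The 8 H2B probes before base 1000, from 7 genes, differed by 0.81 to 2.21 in M0, 0.93 to 2.23 in M1 and 1.01 to 1.48 in M2.

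**Figure D2:**
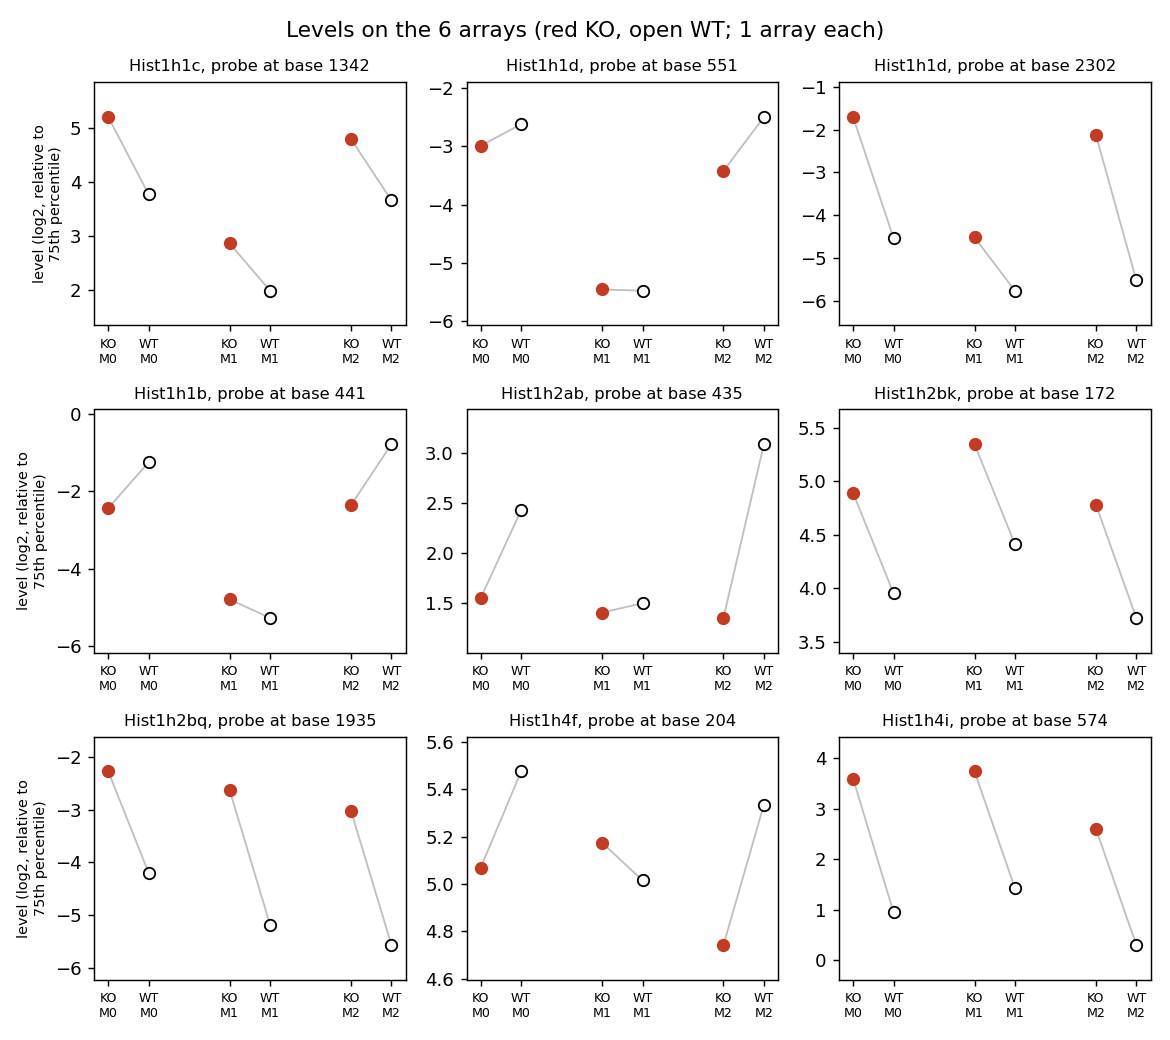
Level of 9 histone probes (y axis, log2 signal relative to the array's 75th percentile; scales differ between panels) on the KO (red) and WT (open) arrays of M0, M1 and M2, each point being 1 array. Hist1h2bk, Hist1h2bq, Hist1h4i and Hist1h1c are higher in KO in every state, whereas Hist1h2ab, Hist1h1b and Hist1h4f are lower in KO in M0 and M2 and the probes of Hist1h1d at base 551 and base 2302 go opposite ways in M0 and M2.

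H4, the partner of H3 in the nucleosome core, differed in another way. Hist1h4f, with its probe at mm9 chr13:23643249-23643308 on the minus strand, had levels of 5.07 in KO and 5.47 in WT in M0, 5.17 in KO and 5.01 in WT in M1, and 4.74 in KO and 5.33 in WT in M2. The KO minus WT differences were -0.41 in M0, 0.16 in M1 and -0.59 in M2. Hist1h4a, Hist1h4d, Hist2h4 and Hist4h4 shared these signs, with differences of -0.50 to -0.26 in M0, 0.09 to 0.13 in M1 and -0.67 to -0.26 in M2. Since Hist1h4d, Hist1h4f and Hist2h4 share much of their probe sequence, these are not separate observations. A second probe of Hist1h4d, at base 36, was lower in KO in all states (-0.88, -0.45 and -0.78).

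Hist1h4i stood apart from the other H4 genes. Its probe, at mm9 chr13:22132591-22132650 on the minus strand, had levels of 3.59 in KO and 0.94 in WT in M0, 3.73 in KO and 1.42 in WT in M1, and 2.60 in KO and 0.30 in WT in M2. The lowest KO level lay above the highest WT level, and the differences were 2.65, 2.31 and 2.30. This was the largest smallest-of-3 difference among the histone genes well above background on all arrays. The RefSeq table gives the gene its current symbol H4c9.

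H1 genes lay on both sides of 0. Hist1h1c, the somatic linker histone H1.2 (current symbol H1f2), had levels of 5.20 in KO and 3.77 in WT in M0, 2.86 in KO and 1.98 in WT in M1, and 4.80 in KO and 3.66 in WT in M2. It was higher in KO in each state, by 1.44, 0.88 and 1.14, through a probe at base 1342 (mm9 chr13:23832018-23832077, plus strand). Hist1h1b, the linker histone H1.5, read -2.43 in KO and -1.24 in WT in M0, -4.80 in KO and -5.27 in WT in M1, and -2.35 in KO and -0.78 in WT in M2. The differences were -1.19 in M0, 0.48 in M1 and -1.58 in M2, and both M1 levels lay far below those of the other states. With normexp the differences of Hist1h1b were -0.17, -0.01 and -1.21. Hist1h1e (H1.4) read 0.34 in KO and 0.92 in WT in M0, -0.81 in KO and -0.42 in WT in M1, and -0.24 in KO and 1.09 in WT in M2, so that it was lower in KO in all 3 states (-0.58, -0.39 and -1.34).

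The remaining H1 genes were Hist1h1a, Hist1h1d and Hist1h1t. Hist1h1a (H1.1) gave 0.24 in M0, 1.39 in M1 and -1.04 in M2. Hist1h1t, the testis-specific H1, was higher in KO by 0.41, 1.11 and 0.63 at levels of -5.62 to -4.41. With normexp its differences were 1.56, 0.10 and 0.05. Hist1h1d (H1.3) gave opposite signs in M0 and M2 at its 2 probes, which lie 1751 bases apart in both the transcript and the genome. At base 551 the differences were -0.37, 0.02 and -0.92, the first of which was 0.68 with normexp. At base 2302 the levels were -1.71 in KO and -4.54 in WT in M0, -4.52 in KO and -5.77 in WT in M1, and -2.12 in KO and -5.52 in WT in M2. The far probe was thus higher in KO by 2.83, 1.25 and 3.40.

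Among the 12 H2A genes, 5 were higher in KO in all states (22% of all genes), 4 were lower in all (15.1%) and 3 had mixed signs. Hist1h2ab read 1.55 in KO and 2.43 in WT in M0, 1.40 in KO and 1.50 in WT in M1, and 1.35 in KO and 3.08 in WT in M2. Its KO levels were nearly even over the states, and its differences were -0.88, -0.09 and -1.73. Hist1h2ai (-0.56, -0.31 and -0.37), Hist1h2ak (-0.66, -0.34 and -0.43) and Hist1h2ao (-0.34, -0.24 and -0.89) were also lower in each state. The probes of Hist1h2ai and Hist1h2ak match at 55 of 60 bases.

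Hist2h2aa1 had levels of 2.90 in KO and 2.21 in WT in M0, 3.73 in KO and 3.24 in WT in M1, and 3.16 in KO and 2.52 in WT in M2. It was higher in KO by 0.69, 0.48 and 0.64. Hist1h2aa, the testis variant TH2A by name, read 6.39 in KO and 6.14 in WT in M0, 6.33 in KO and 6.27 in WT in M1, and 6.51 in KO and 6.48 in WT in M2. Its range over the 6 arrays was small and the differences were 0.24, 0.07 and 0.03. The second was -0.25 with median centring, -0.12 with quantile normalization and -0.18 with the authors' table, and the first -0.15 with normexp. Its probe matches that of H2afj, a replication-independent H2A gene, at 45 of 52 overlapping bases.

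Hist1h2ac was not well above background on any WT array, and on all 3 KO arrays it was. Its levels were -5.30 in KO and -6.99 in WT in M0, -1.42 in KO and -6.62 in WT in M1, and -4.83 in KO and -7.20 in WT in M2. The KO signal was at least 2.21-fold the WT signal in M0, at least 31.7-fold in M1 and at least 2.70-fold in M2. With normexp the fitted differences were 1.65, 1.91 and 0.11, against 1.68, 5.20 and 2.37. The M1 value rests on the KO M1 array, one of the pair with liver transcripts, whose part in it was not tested. Hist1h2ae was higher in KO by 0.31, 1.36 and 0.64, and Hist1h2al gave 0.66, 1.74 and -0.10. With normexp Hist1h2ae gave 1.11, 0.55 and 0.32, and Hist1h2al gave 1.57, 0.24 and -0.13. The current symbol of Hist1h2al, matched by synonym, is H2af-ps2, a pseudogene by its suffix. Its probe lies at mm9 chr13:51295494-51295553, far from the other mapped Hist1 probes. Hist3h2a (0.22, 0.49 and 0.50) was higher in each state, whereas Hist1h2af (0.19, 0.12 and -0.20) and Hist2h2ac (0.26, 0.12 and -0.33) had mixed signs.

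The 3 H3 genes varied little between genotypes where the signal was high. Hist2h3c1 had levels of 6.29 in KO and 5.87 in WT in M0, 7.05 in KO and 6.79 in WT in M1, and 6.40 in KO and 5.97 in WT in M2, and was higher in KO by 0.42, 0.27 and 0.42, the M1 value being -0.05 with median centring. Hist1h3d differed by 0.35, 0.18 and 0.30, and its M1 value was -0.14 with median centring and -0.09 with quantile normalization. Hist1h3a, read through the stem-loop, had levels of -5.23 in KO and -5.33 in WT in M0, -4.64 in KO and -7.53 in WT in M1, and -5.63 in KO and -5.38 in WT in M2. It was not well above background on WT M1, and KO M1 was at least 3.41-fold over it. With normexp the M1 difference was 0.25, and KO M1 is one of the arrays with liver transcripts, whose part was not tested.

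The differences are also given by position of the probe, a split chosen after the values were seen and on the contrasts that chose the genes. The 7 probes from base 1000 of the transcript had median differences of 1.44 for M0, 1.25 for M1 and 1.14 for M2, and all 7 were higher in KO in M0 and M1 and 6 of them in M2. The 36 probes before base 1000 had medians of 0.23, 0.22 and -0.13, and 22, 29 and 17 of them were higher in KO. Taking each gene's probe before base 1000, where it had one, the median over 31 genes in M2 was -0.20, the opposite sign to the 0.22 over the 37 genes. The 7 probes come from H1, H2A and H2B genes, so position and gene are not independent here. Within H2B the probes before base 1000 had medians of 0.98, 1.00 and 1.13, and the far probes of Hist1h2bq, Hist2h2be and Hist2h2bb had the values given above, from 0.15 to 2.54. Hist1h4i, at base 574, also differed by over 2 on the log2 scale in every state. Hist1h1d gives both positions within 1 gene, and a far probe of Hist4h4 at base 1788 was well above background on 0 arrays.

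**Figure D3:**
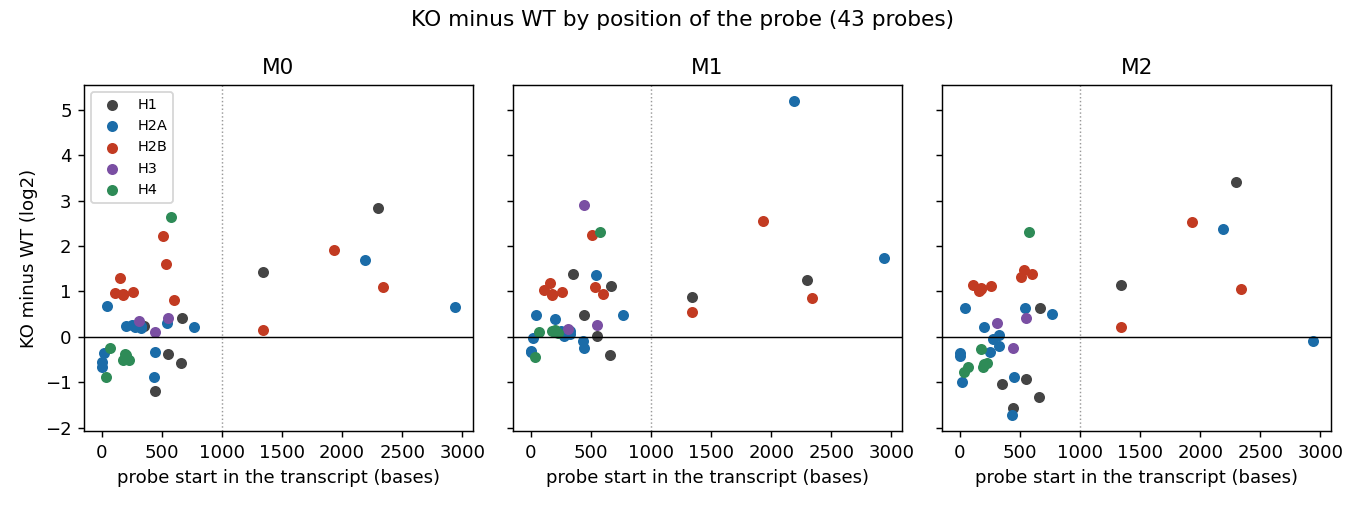
KO minus WT difference (y axis, log2 signal) of the 43 histone probes well above background on at least 2 arrays, against the start of the probe in its transcript (x axis, bases), in M0, M1 and M2; colours mark the histone type and the dotted line base 1000. Right of the line 7 probes have medians of 1.44, 1.25 and 1.14, and left of it the H1, H2A and H4 probes lie on both sides of 0 while those of H2B lie above it.

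Polarization to M1 was compared with M0 within each genotype. The histone genes had a median M1 minus M0 difference of 0.11 in KO and -0.38 in WT, beside 0.06 and 0.02 over all genes, and the sign in KO turned with quantile normalization and the authors' table (-0.12 each). At least 2-fold higher in M1 was 1 histone gene in KO (13.3% of all genes) and 1 in WT (11.7% of all genes). At least 2-fold lower were 5 in KO (14.6% of all genes) and 6 in WT (16.8% of all genes). In both genotypes 14 genes were higher (43.2% of all genes) and 11 lower (38.9%), and 12 differed in sign (17.9%). At least 2-fold lower in both genotypes were 4 histone genes (11.2% of all genes), all of them H1 genes. With normexp Hist1h1d (-0.98 in WT) and Hist1h1e (-0.95 in KO) missed that mark.

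The H1 genes had a median response of -1.75 in KO and -1.56 in WT. Hist1h1b read -4.80 in M1 and -2.43 in M0 in KO, and -5.27 in M1 and -1.24 in M0 in WT. Its M1 minus M0 differences were -2.36 in KO and -4.03 in WT. With normexp they were -1.78 in KO and -1.93 in WT. The difference of Hist1h1d at base 551 was -2.46 in KO and -2.85 in WT, that of Hist1h1c -2.35 in KO and -1.79 in WT, and that of Hist1h1e -1.15 in KO and -1.33 in WT. The H3 genes had a median response of 0.76 in KO and 0.92 in WT: Hist1h3d was higher in M1 by 0.79 in KO and 0.96 in WT, and Hist2h3c1 by 0.76 in KO and 0.92 in WT. With quantile normalization the H3 medians were 0.27 in KO and 0.60 in WT. Hist1h3a was higher in M1 by 0.59 in KO and at least 2.12-fold lower in WT M1 than in WT M0, where normexp gave -1.32 in KO and -0.12 in WT. Hist2h2aa1 was higher by 0.83 in KO and by 1.03 in WT.

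The H2B and H4 medians lay closer to 0. That of H2B was 0.43 in KO and 0.39 in WT on this scale, and in KO it was -0.03 with quantile normalization and -0.07 with the authors' table. The H4 median was 0.12 in KO and -0.45 in WT, and in KO it was -0.21 with quantile normalization and -0.23 with the authors' table. The KO arrays of M1 and M0 lie on slide 2 and the WT arrays on slide 1, and the WT response uses WT M0, and the KO response KO M1, the arrays with liver transcripts. In KO, Hist1h2ac was higher in M1 by 3.88, the only 1 of the 37 genes at least 2-fold higher there, and with normexp the difference was 0.33. Hist1h2be, outside the 37, was at least 3.43-fold higher in KO M1 than in KO M0.

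**Figure D4:**
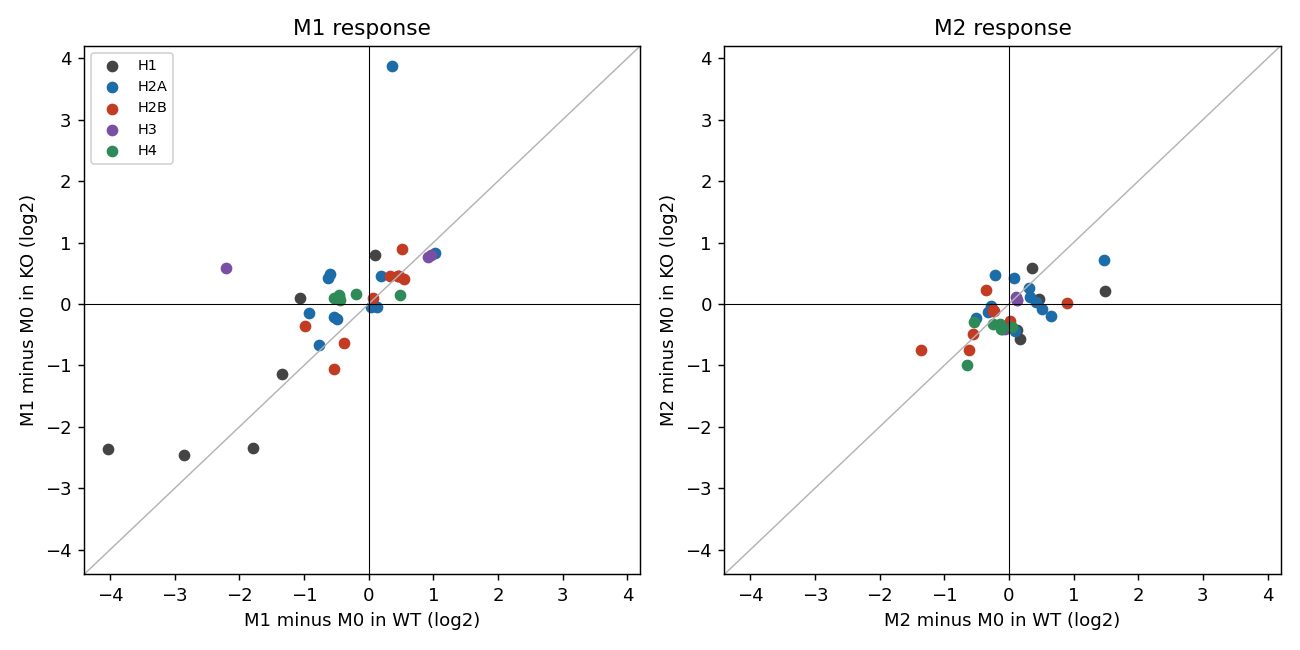
Response of the 37 histone genes to M1 (left) and M2 (right) as the difference from M0, in KO (y axis) against WT (x axis), both in log2 signal, 1 array against 1 array; the grey line marks equal responses. 4 H1 genes lie at the lower left of the M1 panel, and the M2 responses lie mostly near 0.

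In M2 the median difference from M0 was -0.12 in KO and 0.02 in WT, beside 0.02 and 0.11 over all genes. Both signs turned with normexp, to 0.01 in KO and -0.01 in WT, and that in WT also with median centring (-0.13). No histone gene differed by 2-fold in KO on this scale (4.78% of all genes were higher and 4.43% lower). Hist1h4i was past 2-fold lower with median centring (-1.04), quantile normalization (-1.05) and the authors' table (-1.06). Normexp moved the median of all genes in KO to -0.43. With it Hist1h3a (-1.65), Hist1h2ac (-1.55), Hist1h1t (-1.44), Hist1h2al (-1.25), Hist1h1d (-1.21) and Hist1h2bq (-1.15) were past 2-fold lower. In WT 2 were at least 2-fold higher (19.1% of all genes) and 1 was at least 2-fold lower (8.34% of all genes). The 2 were Hist1h1a, higher by 1.49, and Hist1h2al, higher by 1.47, and the 1 was Hist1h2bq, at -1.36. With normexp these values were 0.80, 0.45 and -0.37, all within 2-fold. In both genotypes 12 histone genes were higher in M2 (40.1% of all genes), 16 were lower (30.4%), 9 differed in sign (29.5%) and 0 were at least 2-fold lower (3.23%). The KO pair lies within slide 2 and holds neither array with liver transcripts. In both genotypes Hist1h4i was lower in M2, at -0.99 in KO and -0.64 in WT, and so was Hist3h2ba, at -0.75 in KO and -0.61 in WT. Hist1h1t and Hist2h2aa1 were higher in both, by 0.58 and 0.26 in KO and by 0.36 and 0.31 in WT, but with normexp Hist1h1t was at -1.44 in KO.

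Promoters of the histone genes share letters that the choice of genes did not use. In the RefSeq table of GRCm38.p6, 32 of the 38 genes matched 33 windows, and the 250 bases before each start were searched on both strands. CCAAT, the box bound by NF-Y, was present in 87.9% of the 33 windows, against 33.8% of all 32851 promoters. TATAAA, the TATA box, was in 51.5% against 12.4%. The octamer ATTTGCAT, bound by POU factors, was in 33.3% against 1.6%, in 6 of 11 H2A and 5 of 9 H2B windows and in 0 of the others. AAACACA, known as an element of H1 promoters, was in 5 of 6 H1 windows and 27.3% of all histone windows, against 6.25% of all promoters. Windows were matched by gene, so a window need not lie at the locus of the probe. For Hist1h2ai and Hist1h2bq it is on the opposite strand to the mapped probe. Neighbouring H2A and H2B genes can share a window, and a match is no evidence of binding. Parts of the promoters of Hist1h1c and Hist1h1b, whose KO minus WT differences in M0 and M2 have opposite signs, are given as 150 bases 5′ to 3′ on the gene's strand, at GRCm38.p6 chr13:23738657-23738806 (plus) and chr13:21780626-21780775 (minus). Capitals mark matches to these motifs on either strand, and both promoters hold AAACACA and CCAAT.
Hist1h1c: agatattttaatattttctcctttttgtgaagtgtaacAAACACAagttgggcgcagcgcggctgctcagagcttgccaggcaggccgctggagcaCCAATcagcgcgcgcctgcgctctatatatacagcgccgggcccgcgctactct
Hist1h1b: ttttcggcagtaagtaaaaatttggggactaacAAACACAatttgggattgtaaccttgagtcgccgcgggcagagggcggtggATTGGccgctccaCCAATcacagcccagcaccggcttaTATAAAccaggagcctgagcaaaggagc

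Genes that serve the histones were examined as lists, with limma fitted to all 19044 genes in an additive model of state and genotype. In KO against WT no gene of the whole array passed the adjusted p of 0.05 (0 higher and 0 lower, 0% each), and the lowest adjusted p was 0.305 while 2157 genes had an unadjusted p under 0.05. The 30 DNA replication and cell cycle genes had median KO minus WT differences of -0.43 for M0, 0.04 for M1 and -0.73 for M2. Of them 0 passed. At an unadjusted limma p under 0.05, 9 were lower and 0 higher, beside 2157 of all 19044 genes in both directions together. Tk1, the thymidine kinase of S phase, had levels of -0.85 in KO and 0.27 in WT in M0, -3.26 in KO and -2.46 in WT in M1, and -1.08 in KO and 0.96 in WT in M2. Its limma estimate was -1.32 ± 0.29 (SE, adjusted p = 0.371), and that of Rrm2, a ribonucleotide reductase subunit, was -1.20 ± 0.38 (SE, adjusted p = 0.425). Ccne2 had the largest single difference of the list, higher in KO by 3.08 in M1, with -0.54 in M0 and -1.13 in M2. The limma estimate of Ccne2 was 0.47 ± 0.95 (SE, adjusted p = 0.83). KO M1 is one of the arrays with liver transcripts, whose part was not tested.

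Hist1h1b, the base 551 probe of Hist1h1d and the H4 genes other than Hist1h4i were lower in KO in M0 and M2. The 10 H2B genes, Hist1h4i, Hist1h1c and the base 2302 probe of Hist1h1d were higher in KO in these states. Hist1h1e and 4 H2A genes were lower in M1 as well. With normexp the M0 difference of Hist1h1d at base 551 was 0.68, that of Hist1h1b -0.17 and that of Hist2h2bb -0.09. A link of the histone values to the replication genes was not tested. The 7 granulocyte markers were all lower in KO in M0 and M2. In M1 4 of them were, among which Ngp differed by -2.46 and S100a9 by -2.14, while S100a8 was at 0.59. Their log2 summed signal relative to the 75th percentile, which the brightest markers dominate, was 3.75 in KO and 6.32 in WT in M0 and 2.38 in KO and 4.65 in WT in M2, with 1.88 in KO and 1.84 in WT in M1. That of 8 stromal markers was 2.33 in KO and 3.83 in WT in M0, 2.17 in KO and 2.78 in WT in M1, and 1.84 in KO and 2.91 in WT in M2. The defining granulocyte markers were well above background on 4 to 7 of 7 per array. Their part in the histone values was not tested, and in RNA of a whole culture fewer cells of a type and less RNA per cell cannot be told apart.

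M1 against M0 changed more of these genes: 11.6% of all genes passed as higher and 14% as lower. Of the 30 replication genes 2 rose and 7 fell. Ccne1, the cyclin E of the G1 to S transition, rose by 4.14 ± 0.52 (log2, SE, limma adjusted p = 0.016), and Ccna2, the cyclin A of S phase, fell by 3.98 ± 0.63 (adjusted p = 0.0243). Rrm2 fell by 2.94 ± 0.47 (adjusted p = 0.0247) and Tk1 fell by 2.57 ± 0.36 (adjusted p = 0.0195). Of 18 histone chaperones 2 rose, Asf1a and Daxx, and Nap1l1 fell. Asf1a, which carries H3 and H4, rose by 2.41 ± 0.23 (adjusted p = 0.0108). Daxx, a chaperone of the variant H3.3, rose by 2.28 ± 0.27 (adjusted p = 0.0143), and Nap1l1, an H2A and H2B chaperone, fell by 1.61 ± 0.16 (adjusted p = 0.0114).

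Of 10 replication-independent histone genes tested, 0 rose and 2 fell, where 11.6% of all genes rose and 14% fell. Cenpa, the centromeric H3, fell by 1.84 ± 0.19 (log2, SE, limma adjusted p = 0.0122) and H2afv, an H2A.Z gene, fell by 1.15 ± 0.15 (adjusted p = 0.0177). Of 18 genes of histone mRNA transcription and 3′ processing 2 rose (11.6% of all genes) and 0 fell (14%). Hinfp, an activator of H4 genes, rose by 1.24 ± 0.18 (adjusted p = 0.0202), and Cstf2, a subunit of the cleavage stimulation factor, by 0.75 ± 0.15 (adjusted p = 0.0394). Slbp, which binds the stem-loop, and Npat, the S phase coactivator of histone genes, did not pass, at 0.34 ± 0.17 (adjusted p = 0.214) and -0.36 ± 0.28 (adjusted p = 0.407). Of 12 genes of nuclear RNA decay and polyadenylation only Cpsf6 passed, which fell by 0.79 ± 0.16 (adjusted p = 0.0384). Over all lists 17 of the 89 genes passed in M1, beside 4873 of all 19044 genes. The total of 17 list genes past the threshold in M1 became 0 when any 1 of KO M0, WT M0, KO M1 or WT M1 was left out. In M2 against M0, 0.063% of all genes passed as higher and 0.021% as lower, and 0 of the list genes did.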

How the data were processed

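The authors deposited the scanner output of 6 1-colour (Cy3) Agilent arrays, whose spot intensity was extracted with Agilent Feature Extraction (10.7.3.1 in the headers); the processed signals were background-subtracted and detrended, per the file headers. A table of log2 values that the authors also deposited, with a normalization not given in the sources used here and column medians of 5.39 to 5.41, served as an alternative; each column correlated best with its own array (r at least 0.99886).

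Control spots and 79 to 164 outlier spots of 43379 per array were left out, and 37 of 41174 probes were dropped. Log2 processed signals were scaled to each array's 75th percentile, and no spot was saturated (0). A gene passed the filter where at least 2 arrays had its probe well above background. A difference against an array below background is given as a bound, from the higher of that array's lowest signal well above background and the probe's own. Probe coordinates are those of the files (mm9). Positions in a transcript are the start positions in the files. Current symbols came from RefSeq (GRCm38.p6), 33 by accession and 5 by synonym.

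List genes were tested with limma 3.58.1 in R 4.3.3 (2 residual df, prior df 1.88, Benjamini-Hochberg), checked on simulated data; the residual holds array noise and any state-dependent genotype difference together. The number of arrays limits the precision. The histone genes and the lists were chosen with earlier results of these data known. Named histone genes were those ranked by the smallest of 3 same-sign differences, the extremes of each type and of each response, and genes detected in 1 genotype. Named list genes in M1 were up to 4 past the threshold per list, and Slbp and Npat outside that rule. For KO against WT only replication genes were named: Tk1 and Rrm2 by the size of the limma estimate, and Ccne2 by its M1 difference. Alternatives were median centring, quantile normalization, normexp (offset 50), the authors' table, the mean of probes, other filters, a slide block, an intensity trend and leaving out each array.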

Additional observations from a re-analysis of the deposited data

Results flagged for a closer look

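Hist1h1a differed in direction between states. Its KO minus WT difference was 1.39 on the log2 scale in M1 and -1.04 in M2. Its levels were -3.36 in KO and -4.76 in WT in M1, and -3.24 in KO and -2.20 in WT in M2. With normexp the differences were 0.34 in M1, -0.68 in M2 and 1.10 in M0 (0.24 without it). KO M1 is one of the 2 arrays with liver transcripts, whose part was not tested. Each is 1 array against 1 array, and the difference between the states was not tested.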

How the results depend on the processing

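No paired analysis was possible because each genotype and state has 1 array and the labels give no replicate numbers. The median KO minus WT difference of the histone genes stayed positive in M0 and M1 under every alternative, with 0.17 in M1 after median centring. With normexp the M0 median was 0.35, no higher than the 0.36 over all genes in that setting. In M2 the histone median was -0.20 with probes before base 1000, a setting chosen after seeing the data. At least 2-fold higher in KO were 4 genes in M0 with probes before base 1000, and with normexp 4 in M1, 7 in M2 and 1 in all 3 states. The median M1 minus M0 difference in KO was -0.12 with quantile normalization and with the authors' table; in WT it was 0.00 with median centring and -0.09 with normexp. The median M2 minus M0 difference in KO was 0.01 with normexp; in WT it was -0.13 with median centring, -0.10 with quantile normalization, -0.01 with normexp, -0.14 with the authors' table and -0.06 with the mean of probes. The list genes past the threshold in M1 against M0 numbered 5 with normexp and 32 with an intensity trend, against 17, and 0 to 23 when 1 array was left out (0 without KO M0, WT M0, KO M1 or WT M1, and 23 without KO M2 or WT M2). The cause of these changes was not tested. Of the 20 genes higher in KO in all states 17 remained so with median centring, 18 with quantile normalization, 16 with normexp and 18 with the authors' table, and the 5 lower genes remained lower in each of these. The 6 genes at least 2-fold higher in every state stayed higher in each, and 4, 4, 1 and 5 stayed at 2-fold. Of the 37 genes, with normexp 7 in M0, 2 in M1 and 0 in M2 changed the sign of their KO minus WT difference, and with median centring 0, 11 and 0 did. With 1 array per group, array noise and a group's own difference cannot be told apart. Signal over background limits Hist1h2ac, Hist1h2be and Hist1h3a, which have bounds in some comparisons.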
